A study of Rattus norvegicus with 4 samples.

Results

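The 34 genes described here are published or predicted mRNA targets of the miRNA seed family to which miR-106b and miR-93 belong. They were taken from a fixed list of gene symbols, and 33 of the 34 were found in the deposited values of 15731 genes, each of them once. The iron exporter gene Slc40a1 was not found by its symbol and is not analysed here. Of the 33 genes, 30 had RPKM values above 1.0 in all 4 libraries and were compared between mimics, as were 10984 genes in all. RPKM is a read count divided by the exon length of the gene and by the size of the library, so that levels can be set beside each other between genes and libraries. Epha4, Mapre3 and Rab22a were at or below an RPKM of 1.0 in at least 1 library, and their values are given without entering the counts.

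The RNA came from cultures of ventricular cardiomyocytes, the contracting cells of the heart, isolated from wild type Wistar rats at postnatal day 1 (1 protocol gives day 0). Each culture was transfected with a synthetic mimic, by Lipofectamine RNAiMAX. The mimic was that of a human miRNA of the miR-106b-25 cluster (hsa-miR-106b-5p or hsa-miR-93-5p for the shared seed, and hsa-miR-25-3p for the other), or cel-miR-67, a worm miRNA, as the control. The sample labels give the dose as 25 nM in 1 place and 25 mM in another, and RNA was harvested 72 h after transfection. There was 1 library for each of the 4 mimics, so no difference below has a replicate check and no p-value is given. In what follows, a value after a mimic is that of the library transfected with it. The labels do not say how many animals a culture held. Cells that did not attach during a short first plating were used, which enriches cardiomyocytes, and no sort is described.

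A miRNA guides Argonaute proteins to mRNAs, mostly through pairing between the target and bases 2 to 8 of the miRNA, the seed. Pairing in the untranslated end of an mRNA lowers its translation and hastens its decay, so the mRNA level of a direct target can fall. miRNAs with the same seed share most of their targets and are grouped as a family. miR-106b and miR-93 belong to the miR-17 family, which is known for promoting cell proliferation and for targeting inhibitors of growth. miR-25 comes from the same precursor transcript, within an intron of the replication gene Mcm7, but belongs to the miR-92 family and has another seed.

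The mature rat sequences show which mimics should share targets, and the seed of each is in capitals (RefSeq, GRCr8 build, minus strand of chromosome 12). The sequences of the mimics themselves are not given in the sources used here.
rno-miR-106b-5p: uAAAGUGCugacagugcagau
rno-miR-93-5p: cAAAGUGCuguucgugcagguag
rno-miR-25-3p: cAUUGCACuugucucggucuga
The seeds of miR-106b (chr12:22157103-22157123) and miR-93 (chr12:22156894-22156916) are both AAAGUGC, which pairs with GCACUUU in a target. The seed of miR-25 (chr12:22156652-22156673) is AUUGCAC, which pairs with GUGCAAU. Matches to the seeds in the transcripts of the members were not searched here.

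Library sizes behind the RPKM values were 22674410 to 29749467 reads, as recovered from the values, and 15175185 to 18797234 reads fell on the listed genes. The methods of the study state a far smaller number of reads per sample, and this difference was not resolved here. Whole reads were recovered for all 15731 genes, and the members compared had a median of 1194.5 reads in the control library and at least 185 in every library. The 95% exact (Clopper-Pearson) intervals of log2 fold changes given below come from these reads and cover counting error only. Of 10 cardiomyocyte marker genes 9 were found, all above an RPKM of 1.0 in every library, and their summed RPKM ran from 11883 after miR-25 to 19920 after cel-miR-67. All 10 fibroblast markers were above 1.0, with sums of 350.0 after miR-25, 664 after miR-106b, 767 after miR-93 and 852 after cel-miR-67. The 5 smooth muscle markers summed to 2056 after miR-25 and to 590 to 751 in the other libraries. For 8 endothelial and 8 macrophage markers found, the sums ran from 18.7 to 24.2 and from 12.7 to 19.3, lowest after miR-25 in both. No marker found was at 0. The part of these differences in the members' values was not tested, and in such cultures fewer cells of a type and less RNA per cell cannot be told apart.

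To see how the targets responded to each mimic, fold changes were taken over cel-miR-67 and genes past 1.3-fold were counted. Members were mostly lower after miR-106b and miR-93 and not after miR-25. After miR-106b, 19 of the 30 members compared were lower past 1.3-fold and 0 were higher, while 12.5% of all compared genes were lower and 11.5% higher. After miR-93, 18 members were lower and 0 higher, against 15.7% and 14.8% of all compared genes. After miR-25, the mimic with the other seed, 3 members were lower and 11 higher, against 22.8% and 18.9% of all compared genes. The median log2 fold change of the members was -0.49 after miR-106b, -0.42 after miR-93 and 0.23 after miR-25. Over all compared genes the medians were 0.00, -0.01 and -0.02 in the same order. The range of the members compared ran from -1.80 to 0.16 after miR-106b, from -1.97 to 0.24 after miR-93 and from -1.19 to 1.23 after miR-25. Epha4, left out through its RPKM of 0.897 after miR-25, was higher past 1.3-fold after miR-93, at 1.44 (1.27 to 1.61). Mapre3 and Rab22a, also left out, were lower after miR-93, at -1.14 and -0.63.

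Intervals of single genes gave the same picture by counting error alone. After miR-106b the interval lay below 0 for 23 of 30 members and above 0 for 1, where 27.7% and 25.1% of all compared genes did so. After miR-93 it lay below 0 for 22 and above 0 for 1, beside 30.1% and 27.8% of all compared genes. After miR-25 it lay below 0 for 3 and above 0 for 23, beside 35% and 31.6%. The 3 comparisons share the control library, so their values for a member are not independent.

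**Figure D1:**
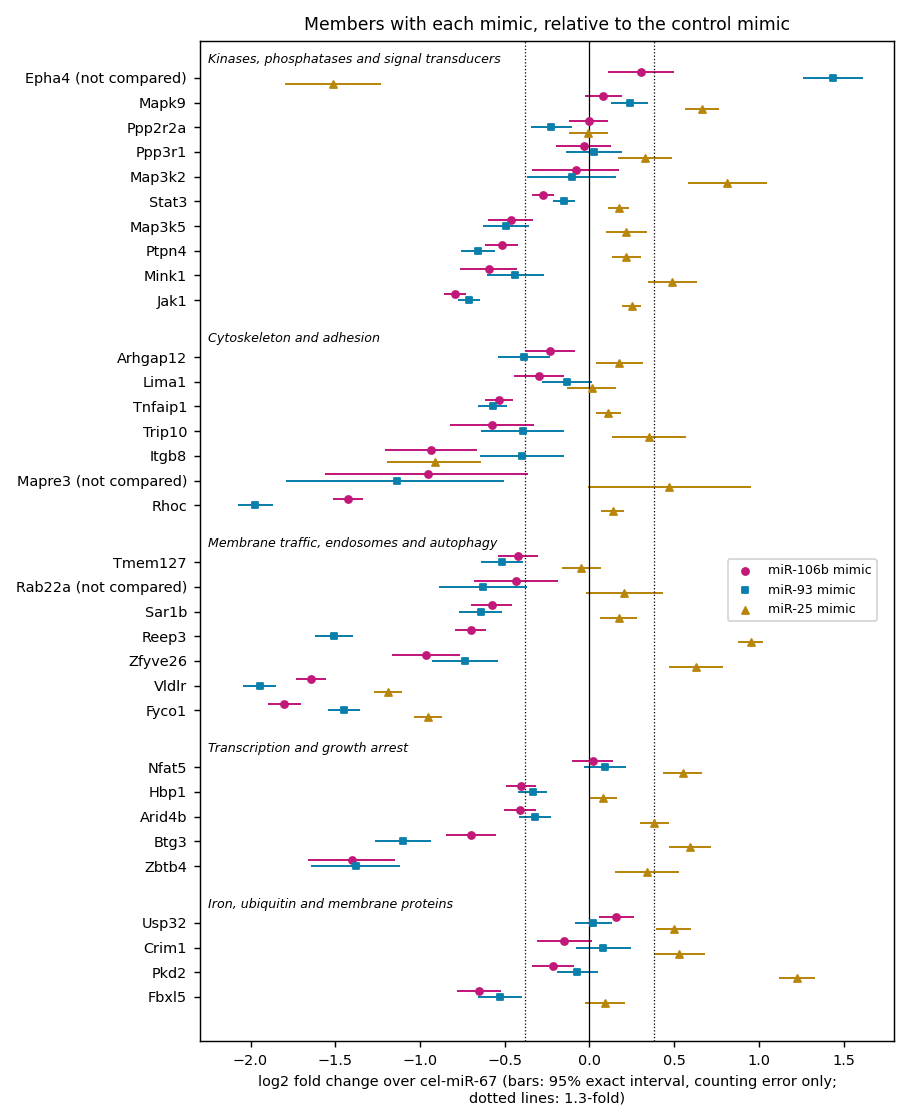
Log2 fold change of each of the 33 members found, after miR-106b, miR-93 and miR-25 over cel-miR-67, grouped by role. Points are the ratio of RPKM values, bars the 95% exact interval from read counts, and dotted lines mark 1.3-fold. Most circles and squares lie left of 0 while most triangles lie right of it, with Epha4, Itgb8, Vldlr and Fyco1 among the exceptions.

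The control library can be left out by comparing the mimics with each other. After miR-106b over miR-25, 24 of 30 members were lower past 1.3-fold and 0 higher, with 21.6% of all compared genes lower and 23.3% higher. After miR-93 over miR-25, 25 members were lower and 1 higher, beside 21.8% and 23.2%. The median log2 ratio of the members was -0.71 for miR-106b over miR-25 and -0.69 for miR-93 over miR-25, while all compared genes had medians of 0.00 and 0.02. Between the mimics that share a seed, miR-93 over miR-106b, 3 members were lower and 1 higher, beside 8.17% and 6.69% of all compared genes, and the members' median was 0.06. By intervals, 28 members lay below 0 and 0 above for miR-106b over miR-25 (34.8% and 35.7% of all compared genes), 29 and 1 for miR-93 over miR-25 (33.9% and 35.7%), and 8 and 9 for miR-93 over miR-106b (23.6% and 21.2%). Both comparisons over miR-25 use the same miR-25 library. Their lower counts include members within 1.3-fold of the control with both seed-sharing mimics and higher after miR-25. Map3k2, Mapk9, Nfat5, Pkd2 and Crim1 were of this kind.

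The order of the libraries tells the same in levels. The miR-25 library held a higher RPKM than both the miR-106b and the miR-93 library for 28 of 30 members (93.3%), as it did for 41.9% of all compared genes. The control library was above both for 25 members (83.3%), and for 39.6% of all compared genes. Of the 4 libraries, miR-25 gave the highest level for 25 members (83.3%), and for 34.5% of all compared genes.

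**Figure D2:**
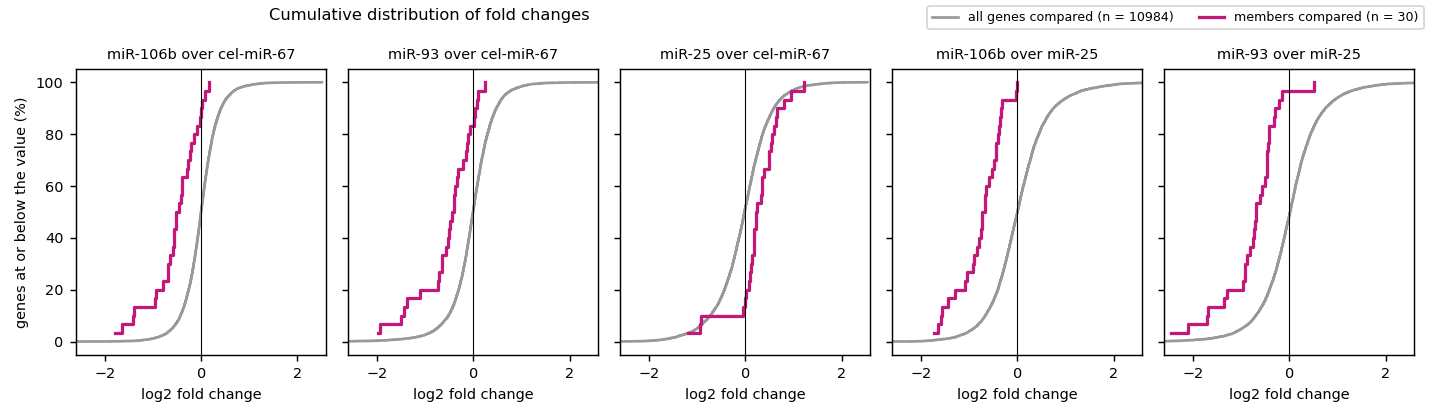
Share of genes at or below each log2 fold change, for the 30 members compared and for all 10984 compared genes, in 5 comparisons. The members' curve lies left of the curve of all genes for miR-106b and miR-93, over cel-miR-67 as well as over miR-25, and mostly right of it for miR-25 over cel-miR-67.

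The members have a long summed exon length per gene, as recovered from the RPKM values, with a median of 4106.5 bases against 2317 bases for all compared genes. Of the 30 members, 23 lay in the longest of 3 length classes of equal size (3150 to 31193 bases). In that class, the median log2 fold change of all genes was -0.04 after miR-106b, -0.04 after miR-93 and 0.03 after miR-25, and that of the 23 members was -0.46, -0.44 and 0.25. Past 1.3-fold, 14 of the 23 were lower after miR-106b and 14 after miR-93, where 13.3% and 16.7% of the genes in that class were lower. After miR-25, 9 of the 23 were higher, where 19.5% of that class were higher.

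Over cel-miR-67, membrane traffic genes had the lowest medians of the 5 role groups with each mimic, miR-25 included. All 6 compared genes of this group, which serve the secretory pathway, endosomes and autophagy, were lower past 1.3-fold after miR-106b and after miR-93, with medians of -0.83 and -1.09. After miR-25, 2 were lower and 2 higher, and the median was 0.06. For miR-106b over miR-25 the median was -0.80, beside -0.79 for the genes of transcription and growth arrest. Of all compared genes, 12.5% and 15.7% were lower after miR-106b and miR-93, and 22.8% lower and 18.9% higher after miR-25. Vldlr encodes the very low density lipoprotein receptor, an endocytic receptor that takes up lipoproteins and binds reelin. It had an RPKM of 16.4 after miR-106b, 13.3 after miR-93, 22.5 after miR-25 and 51.3 after cel-miR-67. The control library was the highest by a wide margin and the mimic with the other seed was also low. Vldlr thus had a log2 fold change of -1.64 after miR-106b (95% exact interval -1.73 to -1.56), -1.95 after miR-93 (-2.04 to -1.85) and -1.19 after miR-25 (-1.27 to -1.11).

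Fyco1, an adaptor that links late endosomes and autophagosomes to kinesin motors, was also lowest after the seed-sharing mimics and highest in the control. Its RPKM was 5.29 after miR-106b, 6.75 after miR-93, 9.52 after miR-25 and 18.4 after cel-miR-67. The log2 fold change was -1.80 after miR-106b (-1.89 to -1.71), the lowest of any member compared, -1.45 after miR-93 (-1.54 to -1.36) and -0.95 after miR-25 (-1.03 to -0.87). With the control left out, Fyco1 was still lower after miR-106b than after miR-25, at -0.85 (-0.95 to -0.75), and Vldlr at -0.45 (-0.55 to -0.36). For these 2 genes every mimic was below the control, which the single control library cannot tell apart from a high value in that library.

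Reep3, a shaping protein of the endoplasmic reticulum that keeps its membranes off mitotic chromosomes, was spread widest in this group. Its RPKM was 13.8 after miR-106b, 7.89 after miR-93, 43.4 after miR-25 and 22.4 after cel-miR-67. The seed-sharing mimics lay below the control and miR-25 above it. Over the control, the log2 value of Reep3 was -0.70 after miR-106b (-0.79 to -0.62), -1.51 after miR-93 (-1.61 to -1.40) and 0.95 after miR-25 (0.88 to 1.02). It was 1 of the 3 members, with Rhoc and Btg3, that were lower past 1.3-fold for miR-93 over miR-106b, at -0.80 (-0.91 to -0.70).

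Zfyve26, which encodes spastizin, a protein of lysosome renewal and autophagy, was scarce. Its RPKM was 1.32 after miR-106b, 1.55 after miR-93, 3.99 after miR-25 and 2.58 after cel-miR-67, again with the control between the 2 seeds. The log2 fold change was -0.96 after miR-106b (-1.16 to -0.77), -0.73 after miR-93 (-0.92 to -0.55) and 0.63 after miR-25 (0.48 to 0.78). Sar1b, the GTPase that starts COPII vesicles at the endoplasmic reticulum, had an RPKM of 31.1 after miR-106b, 29.7 after miR-93, 52.2 after miR-25 and 46.3 after cel-miR-67. Over the control, the log2 value of Sar1b was -0.58 (-0.69 to -0.46), -0.64 (-0.76 to -0.52) and 0.17 (0.07 to 0.28) after miR-106b, miR-93 and miR-25. Tmem127, an endosomal protein that restrains mTOR signalling, had an RPKM of 9.83, 9.21, 12.7 and 13.2 after miR-106b, miR-93, miR-25 and cel-miR-67. On the log2 scale its fold change was -0.42 after miR-106b (-0.53 to -0.31), -0.51 after miR-93 (-0.63 to -0.40) and -0.05 after miR-25 (-0.16 to 0.06), and after miR-25 a difference from the control was not detectable at this depth. Rab22a, a GTPase of early endosomes, was near the RPKM limit at 1.14, 0.995, 1.77 and 1.54 in the same order of libraries, with log2 values over the control of -0.43 (-0.67 to -0.19), -0.63 (-0.88 to -0.37) and 0.20 (-0.02 to 0.43).

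**Figure D3:**
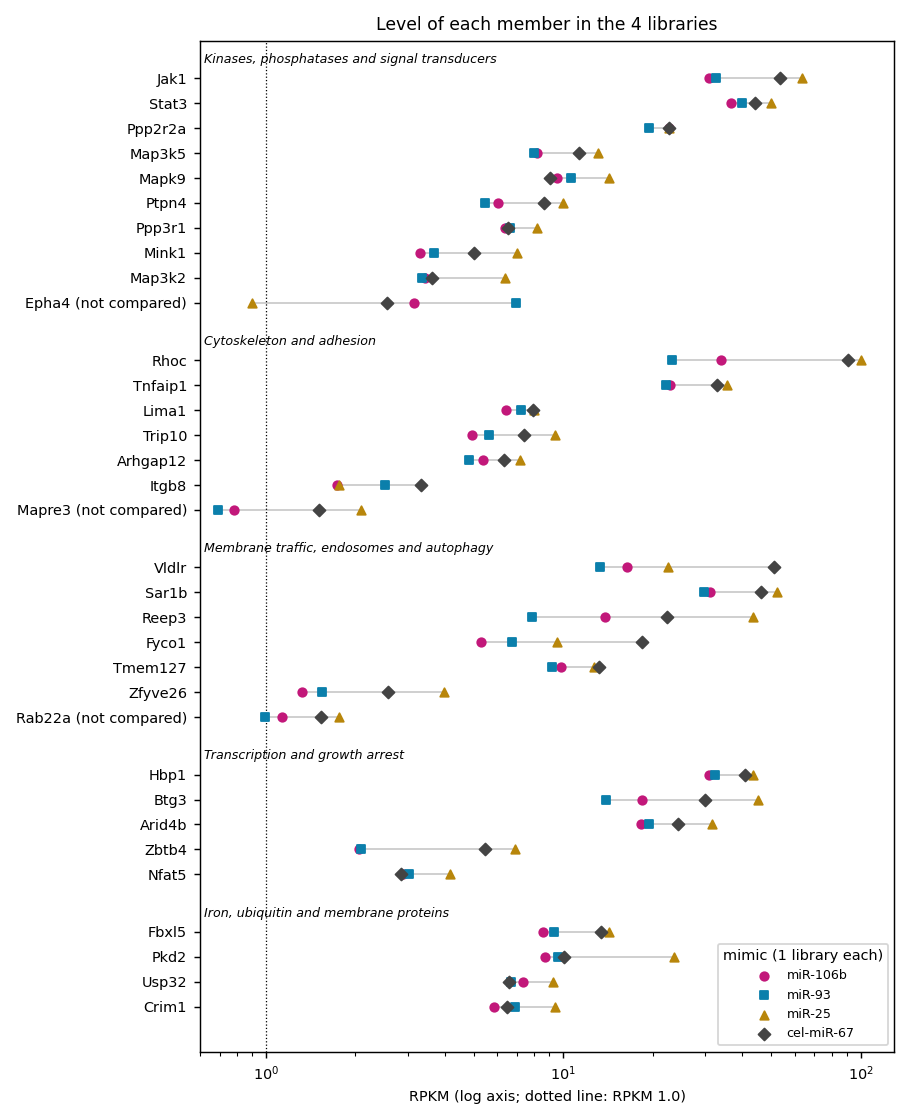
RPKM of each of the 33 members found in the 4 libraries (log axis), grouped by role, with a dotted line at an RPKM of 1.0. Levels span from 0.689 for Mapre3 after miR-93 to 100.1 for Rhoc after miR-25, and the miR-25 library is the highest of the 4 for most members.

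Genes of the cytoskeleton and adhesion were lower with both seed-sharing mimics and near the control after miR-25. Of 6 compared, 4 were lower past 1.3-fold after miR-106b, 5 after miR-93 and 1 after miR-25, with medians of -0.55, -0.40 and 0.13, and 0 were higher. The shares of all compared genes that were lower were 12.5%, 15.7% and 22.8%, so the share of this group after miR-25 was no larger than that of all genes. Rhoc, a small GTPase that drives actomyosin contraction and cell movement, was the most abundant member in the miR-25 and control libraries. It had an RPKM of 33.9 after miR-106b, 23.2 after miR-93, 100.1 after miR-25 and 90.9 after cel-miR-67. The libraries of the 2 seeds were clearly apart, with the control beside miR-25. Rhoc thus had a log2 fold change of -1.42 after miR-106b (-1.51 to -1.34), -1.97 after miR-93 (-2.07 to -1.88), the lowest of any member with this mimic, and 0.14 after miR-25 (0.08 to 0.20). Rhoc was also lower after miR-93 than after miR-106b, at -0.55 (-0.66 to -0.44).

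Tnfaip1, a substrate adaptor of a cullin ubiquitin ligase that acts on RhoA, had an RPKM of 22.8 after miR-106b, 22.2 after miR-93, 35.7 after miR-25 and 33.0 after cel-miR-67. On the log2 scale its fold change was -0.53 after miR-106b (-0.61 to -0.46), -0.57 after miR-93 (-0.65 to -0.49) and 0.11 after miR-25 (0.04 to 0.18). Trip10, a membrane-bending adaptor of the small GTPase Cdc42, had an RPKM of 4.96, 5.62, 9.42 and 7.39 after miR-106b, miR-93, miR-25 and cel-miR-67. For this gene too the control lay between the seeds, with log2 values over the control of -0.57 (-0.82 to -0.33), -0.39 (-0.63 to -0.15) and 0.35 (0.14 to 0.57).

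Itgb8 departed from this order, and Arhgap12 kept it with smaller steps. Itgb8, an integrin subunit that activates latent TGF-beta, had an RPKM of 1.74 after miR-106b, 2.53 after miR-93, 1.77 after miR-25 and 3.33 after cel-miR-67. Its log2 fold change after miR-25, -0.91 (-1.19 to -0.64), was close to that after miR-106b, -0.94 (-1.20 to -0.67), and the value after miR-93 was -0.40 (-0.64 to -0.15). As with Vldlr and Fyco1, every mimic was below the control, which cannot be told apart from a high value in that single library. Itgb8 was the member that was higher past 1.3-fold after miR-93 than after miR-25, at 0.52 (0.24 to 0.79). Arhgap12, a GTPase activating protein, had an RPKM of 5.39, 4.83, 7.15 and 6.33 in the order miR-106b, miR-93, miR-25 and cel-miR-67. It was past 1.3-fold after miR-93, at -0.39 (-0.54 to -0.24), and short of it after miR-106b, at -0.23 (-0.37 to -0.09). Lima1, an actin-bundling protein, was within 1.3-fold of the control with each mimic, between -0.30 and 0.01. Mapre3, which binds growing microtubule ends, was scarce, at an RPKM of 0.781, 0.689, 2.09 and 1.51, from 34 to 103 reads. Mapre3 was at -0.95 (-1.55 to -0.37) and -1.14 (-1.78 to -0.51) after the seed-sharing mimics on the log2 scale, and its interval after miR-25 was -0.00 to 0.95.

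Kinases, phosphatases and signal transducers were split between genes that were lower and genes near the control. Of 9 compared, 4 were lower past 1.3-fold after miR-106b and 4 after miR-93, with medians of -0.27 and -0.22, and 3 were higher after miR-25, with a median of 0.25. Among all compared genes 12.5% and 15.7% were lower and 18.9% higher in these comparisons. Jak1, the tyrosine kinase of many cytokine receptors, had an RPKM of 30.9 after miR-106b, 32.7 after miR-93, 63.7 after miR-25 and 53.6 after cel-miR-67. The seed-sharing libraries were close to each other and well under the other two. Jak1 thus had a log2 fold change of -0.79 after miR-106b (-0.85 to -0.73), -0.71 after miR-93 (-0.77 to -0.65) and 0.25 after miR-25 (0.20 to 0.30). Stat3, a transcription factor that Jak1 activates, had the same order with smaller steps, at an RPKM of 36.6, 39.9, 49.98 and 44.3 after miR-106b, miR-93, miR-25 and cel-miR-67. None of the log2 fold changes of Stat3 was past 1.3-fold, at -0.27 (-0.33 to -0.22), -0.15 (-0.21 to -0.09) and 0.17 (0.12 to 0.23).

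Of the MAP kinase genes, those that act upstream differed from each other. Map3k5, the stress-activated kinase ASK1, had an RPKM of 8.17 after miR-106b, 8.01 after miR-93, 13.1 after miR-25 and 11.3 after cel-miR-67. On the log2 scale its fold change was -0.46 after miR-106b (-0.59 to -0.34), -0.49 after miR-93 (-0.62 to -0.36) and 0.22 after miR-25 (0.10 to 0.33). Mink1, a Ste20-type kinase upstream of JNK, had an RPKM of 3.31, 3.70, 7.02 and 5.00 in the order miR-106b, miR-93, miR-25 and cel-miR-67. It was lower with the seed-sharing mimics, at -0.59 (-0.76 to -0.43) and -0.44 (-0.60 to -0.28), and higher after miR-25, at 0.49 (0.35 to 0.63).

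Map3k2, a kinase upstream of ERK5 and JNK, and Mapk9, which encodes JNK2, were within 1.3-fold of the control with the seed-sharing mimics and higher after miR-25. Map3k2 had an RPKM of 3.42 after miR-106b, 3.36 after miR-93, 6.36 after miR-25 and 3.62 after cel-miR-67. Its intervals held 0 after miR-106b (-0.33 to 0.17) and miR-93 (-0.36 to 0.15), while the log2 fold change after miR-25 was 0.81 (0.59 to 1.04). For Mapk9 the RPKM was 9.55, 10.6, 14.3 and 9.02, and the log2 fold change was 0.08 (-0.02 to 0.18) after miR-106b, 0.24 (0.14 to 0.34) after miR-93, the highest of any member compared with this mimic, and 0.66 (0.57 to 0.76) after miR-25. For both genes the miR-25 library was thus the highest, with the other mimics within 1.3-fold of the control. With 1 library per mimic, the source of the difference between the seeds was not tested.

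Among the phosphatases, Ptpn4, a tyrosine phosphatase of the FERM domain type, had an RPKM of 6.02 after miR-106b, 5.47 after miR-93, 10.0 after miR-25 and 8.62 after cel-miR-67. Over the control, the log2 value of Ptpn4 was -0.52 (-0.61 to -0.43), -0.66 (-0.75 to -0.56) and 0.22 (0.14 to 0.30) after miR-106b, miR-93 and miR-25. The 2 serine/threonine phosphatase subunits were within 1.3-fold of the control with each mimic. Ppp3r1, the regulatory subunit of calcineurin, a driver of cardiac hypertrophy, lay between -0.03 and 0.33. Ppp2r2a, a targeting subunit of PP2A, had an RPKM of 22.7, 19.5, 22.7 and 22.8, and its ratio of miR-106b over miR-25 was 0.00 on the log2 scale (-0.10 to 0.10). Epha4, an ephrin receptor of cell contacts, went the other way, with an RPKM of 3.16 after miR-106b, 6.94 after miR-93, 0.897 after miR-25 and 2.56 after cel-miR-67. The log2 values of Epha4 over the control were 0.30 (0.11 to 0.50), 1.44 (1.27 to 1.61) and -1.51 (-1.79 to -1.24).

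Genes of transcription and growth arrest were lower in 4 of 5 cases after miR-106b and in 2 of 5 after miR-93, and 3 of 5 were higher after miR-25. The medians were -0.41, -0.34 and 0.38, and the shares of all compared genes were 12.5% and 15.7% lower and 18.9% higher. Btg3, an antiproliferative protein that restrains entry into S phase, had an RPKM of 18.5 after miR-106b, 14.0 after miR-93, 45.2 after miR-25 and 30.0 after cel-miR-67. Here the control lay well inside the span of the mimics. Over the control, the log2 value of Btg3 was -0.70 after miR-106b (-0.84 to -0.56), -1.10 after miR-93 (-1.26 to -0.94) and 0.59 after miR-25 (0.47 to 0.71). Zbtb4, a repressor that binds methylated DNA, had an RPKM of 2.06, 2.10, 6.90 and 5.45 after miR-106b, miR-93, miR-25 and cel-miR-67. Its level hardly differed between the seed-sharing mimics, at log2 values over the control of -1.40 (-1.66 to -1.15) and -1.38 (-1.64 to -1.12), and miR-25 was at 0.34 (0.16 to 0.53). Zbtb4 gave the lowest ratio of any member for miR-106b over miR-25, at -1.74 (-1.98 to -1.51).

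Arid4b and Hbp1 lay close to the 1.3-fold line. Arid4b, a subunit of a histone deacetylase complex, had an RPKM of 18.3 after miR-106b, 19.4 after miR-93, 31.6 after miR-25 and 24.3 after cel-miR-67. On the log2 scale its fold change was -0.41 (-0.50 to -0.32), -0.32 (-0.41 to -0.23) and 0.38 (0.30 to 0.46). Hbp1, a repressor of cell cycle genes, had an RPKM of 31.0, 32.5, 43.4 and 41.0 in the order miR-106b, miR-93, miR-25 and cel-miR-67. It was past 1.3-fold after miR-106b, at -0.40 (-0.49 to -0.32), and short of it after miR-93, at -0.34 (-0.42 to -0.25). Nfat5, the transcription factor of the response to hypertonic stress, was near the control with the seed-sharing mimics, at 0.02 (-0.10 to 0.14) and 0.09 (-0.03 to 0.21), and higher after miR-25, at 0.55 (0.44 to 0.66), with an RPKM of 2.89, 3.04, 4.18 and 2.85.

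In the group of iron, ubiquitin and membrane proteins, 4 genes were compared. With each seed-sharing mimic 1 of them was lower, and 3 were higher after miR-25, with medians of -0.18, -0.02 and 0.51, beside 12.5% and 15.7% of all compared genes lower and 18.9% higher. Fbxl5, the iron-sensing ubiquitin ligase subunit that degrades the iron regulatory protein IRP2, had an RPKM of 8.57 after miR-106b, 9.32 after miR-93, 14.3 after miR-25 and 13.4 after cel-miR-67. It was the gene of this group that was lower, at -0.65 (-0.77 to -0.53) and -0.53 (-0.65 to -0.41), and after miR-25 no difference was detectable, at 0.09 (-0.02 to 0.20). Pkd2, which encodes the calcium-permeable channel polycystin-2, had an RPKM of 8.70, 9.60, 23.6 and 10.1 after miR-106b, miR-93, miR-25 and cel-miR-67. The miR-25 library stood alone at the top, and the log2 fold change of 1.23 (1.13 to 1.33) was the highest of any member after miR-25, while the values with the other mimics were -0.21 (-0.33 to -0.10) and -0.07 (-0.19 to 0.05). Usp32, a deubiquitinase, was at 0.16 (0.06 to 0.26) after miR-106b, the highest value of any member compared with this mimic, 0.02 (-0.08 to 0.13) after miR-93 and 0.50 (0.40 to 0.59) after miR-25. Crim1, a membrane protein that binds BMP ligands, was at -0.15 (-0.31 to 0.01), 0.08 (-0.07 to 0.24) and 0.53 (0.39 to 0.68).

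To place the members, 2 further lists were described in the same way. A list of 30 other published targets of the miR-17 family, which holds several cell cycle, TGF-beta and autophagy genes, had 29 genes compared. After miR-106b 12 were lower and 3 higher past 1.3-fold, after miR-93 11 and 6, and after miR-25 8 and 10. All compared genes had 12.5% lower and 11.5% higher after miR-106b, 15.7% and 14.8% after miR-93 and 22.8% and 18.9% after miR-25, so the lower calls of this list after miR-25 were near the share of all genes. The medians were -0.31, -0.25 and 0.17, the same signs as for the members and closer to 0. In this list Abca1, the cholesterol exporter, and Ccnd1, the gene of cyclin D1, were lowest with both mimics, with Abca1 at -1.56 after miR-106b and -1.38 after miR-93 and Ccnd1 at -1.27 and -1.69. Bcl2l11, a proapoptotic member of the BCL2 family, and Mapk14, the kinase p38 alpha, were highest and went against the list, with Bcl2l11 at 1.20 after miR-106b and 1.84 after miR-93 and Mapk14 at 1.04 and 1.14.

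The second list held 13 published targets of the miR-25 seed family, all of which were compared. After miR-25 8 were lower and 2 higher, with a median of -0.47, while after miR-106b 2 were lower and 2 higher and after miR-93 2 and 5, with medians of 0.03 and 0.15. The shares of all compared genes were 22.8% lower and 18.9% higher after miR-25, 12.5% and 11.5% after miR-106b, and 15.7% and 14.8% after miR-93. The lower calls of this list after miR-106b and miR-93 were thus near those of all genes. Higher calls made up 38.5% of the 13 genes after miR-93, and 15.4% after miR-106b and after miR-25. Atp2a2, the calcium pump SERCA2, chosen for mention after its values were seen, had an RPKM of 434 after miR-106b, 565 after miR-93, 103 after miR-25 and 422 after cel-miR-67. It was the lowest of the list after miR-25, at -2.03, and Reck was the highest, at 0.89. Mef2d and Itga5 were the lowest of the list after miR-106b, at -0.52 and -0.49, and Itga5 and Itgav after miR-93, at -1.17 and -0.48. Cdkn1c, a cell cycle inhibitor, was the highest with both, at 1.77 and 2.72, and was at 0.06 (-0.32 to 0.45) after miR-25. Next came Klf2 after miR-106b, at 0.41 with an interval that held 0 (-0.09 to 0.92), and Dkk3 after miR-93, at 0.77. The medians of this list after miR-106b and miR-93 depended on the RPKM limit. The median after miR-106b was -0.04 with limits of 2.0 and of 10, and that after miR-93 was -0.10 with a limit of 10.

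**Figure D4:**
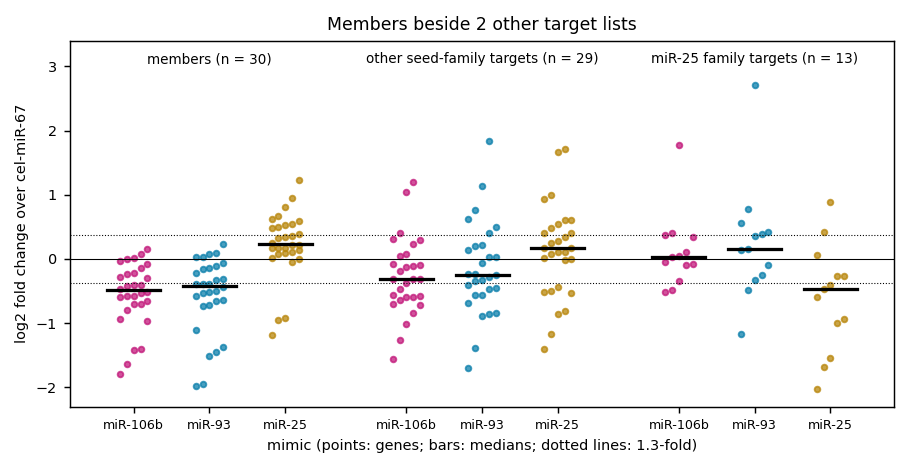
Log2 fold change over cel-miR-67 of the 30 members compared, of 29 other targets of the miR-17 family and of 13 targets of the miR-25 seed family, for each mimic. Points are genes, bars are medians and dotted lines mark 1.3-fold. The bars for miR-106b and miR-93 lie below 0 in the first 2 lists, at -0.49 and -0.42 and at -0.31 and -0.25, and the bar for miR-25 in the last list, at -0.47.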

How the data were processed

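RNA of neonatal rat cardiomyocytes was sequenced as 50-base single reads, with 1 library per mimic. As the methods and the labels state, the authors trimmed adaptors (Cutadapt), mapped reads to Rnor_6.0 (STAR, version 2.7 in the submitters' processing notes), rounded the gene counts and deposited RPKM values computed with edgeR's rpkm function. The values of the 4 sample files and of the series table were identical. From these values, fold changes were computed without a pseudocount for genes above an RPKM of 1.0 in all 4 libraries, and genes past 1.3-fold, the cutoff of the study, were counted. Whole reads were recovered from the steps of the RPKM values, with a common factor put back for 654 genes so that gene lengths came out whole, and gave 95% Clopper-Pearson intervals. The recovery was tested on simulated data. There was no test between conditions, because each has 1 library, and p-values would rest on no replicates. Members, lists and their roles were chosen with earlier results of these data known. The text gives every member found, and in the other lists the 2 lowest and the 2 highest genes with miR-106b and with miR-93. Atp2a2 and Reck are given besides, as the lowest and the highest of the miR-25 family targets after miR-25. The 176 symbols listed more than once include no member and no listed target. Alternatives were RPKM limits of 0, 2.0 and 10, fold cutoffs of 1.5 and 2, a pseudocount of 0.1 or 1, ratios centred on the median gene, and a call that also needs the interval to leave out 0. A planned search for seed matches in transcripts was not run, as no transcript sequences were used here. The software was pandas 2.3.3, scipy 1.17.1 and numpy 2.4.6 in Python 3.11.15, with matplotlib 3.10.9 for plots.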

Additional observations from a re-analysis of the deposited data

Results flagged for a closer look

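Some members lay past 1.3-fold on opposite sides of the control with miR-25 and with a seed-sharing mimic. Each mimic has 1 library, so these differences were not tested, and all are given as the log2 ratio of the seed-sharing mimic over miR-25. Reep3 was at -1.65 for miR-106b and -2.46 for miR-93, Zfyve26 at -1.59 and -1.36, Btg3 at -1.29 and -1.69, and Mink1 at -1.08 and -0.93. Arid4b was at -0.79 for miR-106b, and with miR-93 it was not past 1.3-fold from the control. Mapre3 was at -1.42 and -1.60, from 34 to 103 reads per library and with RPKM values below 1.0 with both seed-sharing mimics. Epha4 went the other way, at 2.95 for miR-93, with an RPKM below 1.0 with miR-25.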

How the results depend on the processing

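No paired analysis was possible because each mimic has 1 library, and for the same reason no library could be left out within a group. Among recomputed counts and medians, 165 stayed within 1.5 times the count or within the typical counting error of a member, 50 moved further and 1 changed sign from a value beyond that error. The fold cutoff and the RPKM limit of 10 moved most, the latter because it left 10 members, 12 other family targets and 5 miR-25 family targets. In the order miR-106b, miR-93, miR-25, lower members numbered 8, 6 and 1 above an RPKM of 10, 11, 10 and 3 with a cutoff of 1.5, and 4, 6 and 1 with a cutoff of 2. Of all compared genes, 9.28%, 15.1% and 23.0% were lower above an RPKM of 10, 5.48%, 8.38% and 13.9% with a cutoff of 1.5, and 1.22%, 2.59% and 5.08% with a cutoff of 2. Higher members with miR-25 numbered 2, 6 and 1 in the same settings, beside 13.0%, 10.2% and 3.0% of all compared genes. With miR-93 there was 1, Epha4, without an RPKM limit, where 20.7% of all compared genes were higher. The median with miR-93 above an RPKM of 10 was -0.61. Over miR-25, lower members numbered 9 with miR-106b and 8 with miR-93 above an RPKM of 10, and 8 and 6 with a cutoff of 2. Higher members over miR-25 numbered 1 with miR-106b and 2 with miR-93 without an RPKM limit, and 0 with miR-93 with RPKM limits of 2.0 and 10, cutoffs of 1.5 and 2 and a pseudocount of 1. For miR-93 over miR-106b, higher members numbered 2 without a limit and 0 in those same settings, and lower members 1 and 0 with cutoffs of 1.5 and 2. Between mimics, the shares of all compared genes were not computed in these settings, so these counts cannot be set against all genes. In the other family targets, lower genes with the 3 mimics numbered 3, 3 and 2 above an RPKM of 10 and 3, 2 and 2 with a cutoff of 2. With a cutoff of 1.5 they numbered 6 with miR-93 and 4 with miR-25. With an RPKM limit of 2.0, 5 of 25 compared genes of this list were lower with miR-25. That share was no larger than the share of all compared genes in the same setting. In the miR-25 family targets, lower genes numbered 0 and 1 with miR-106b and miR-93 with a cutoff of 1.5, 0, 1 and 3 with the 3 mimics with a cutoff of 2, and 1 with miR-106b and 5 with miR-25 above an RPKM of 10. The median of that list with miR-25 was -0.59 with a limit of 2.0 and -0.99 with a limit of 10, with miR-93 it changed sign to -0.10 with a limit of 10, and with miR-106b it went from 0.03 to -0.04 with both limits. Among recomputed values of single members, 261 stayed within their interval and 9 moved outside it, and 0 changed sign from a value past 1.3-fold. Ppp2r2a after miR-25, within 1.3-fold, went from -0.006 to 0.011 with centring. Centring, both pseudocounts and the interval rule left every count of lower members over cel-miR-67 within 1.5 times.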
